A study of Homo sapiens with 6 samples.

Results

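The expression of genes was compared between C4-2 cells given astemizole and C4-2 cells given GSK126, a pair of compounds that act on the same histone methyltransferase complex by different routes. A gene was taken into the comparison when it reached 1 FPKM or more (fragment counts adjusted for gene length and library size) with either compound, and liver-type transcripts were set aside for a reason given below. This left 12663 genes of the 28503 lines in the table. Each difference is the log2 of (FPKM + 1) with astemizole over (FPKM + 1) with GSK126, so a negative value means lower with astemizole. It is called the astemizole/GSK126 log2 ratio here, it understates changes of genes with low values, and a gene was counted as changed at 2-fold or more. There was 1 library per compound and therefore no replicate check, no error and no test: every statement compares those libraries, not the conditions.

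C4-2 is an established human line of prostate cancer that was derived from the LNCaP line. Its cells, at passages 10 to 15, were kept in RPMI-1640 medium with 10% fetal bovine serum, plated in 6-well plates, and given vehicle, GSK126 or astemizole. Further wells received lentivirus with a scramble shRNA or with 1 of 2 EZH2 shRNAs, whose values stand in the table as a single knockdown column. The labels used here give neither the doses nor the exposure times of the compounds, so it is not known whether the compounds were matched in either. The astemizole and GSK126 columns were each also set against vehicle. Those comparisons share the vehicle column with each other and a compound column with the direct contrast, so their values are given side by side only. Where a gene is said to be highest or lowest with a treatment, only the vehicle, GSK126 and astemizole columns are ranked, unless other columns are named.

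Polycomb repressive complex 2 (PRC2) places methyl groups on H3K27 and so keeps genes silent. Its catalytic subunit is EZH2, or the paralog EZH1, and it is active only when bound to EED and SUZ12. GSK126 competes with the methyl donor in the catalytic pocket of EZH2. Astemizole, an antihistamine that also blocks the KCNH2 potassium channel, was reported to disturb the binding of EZH2 to EED. It is a cationic amphiphilic amine, a kind of compound known to collect in lysosomes and to disturb the traffic of cholesterol.

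FPKM summed to 796603 with vehicle, 686375 with GSK126 and 772980 with astemizole. The spacing of low values put the worth of 1 read at 1.11 times as much FPKM with astemizole as with GSK126, from a pile of 176 genes in a log2 window of width 0.01, where a typical window held 7. Total read counts are unknown, so no counting interval is given. All 10 luminal prostate markers stood at 1 FPKM or more in every column, with summed levels of 5005 FPKM with vehicle, 5780.1 with GSK126 and 3445 with astemizole. Of the other cell types, 1 of 3 basal markers (KRT14), 1 of 6 blood markers (LYZ), 1 of 5 fibroblast markers (COL1A1) and 0 of 3 endothelial markers reached 1 FPKM with either compound.

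The GSK126 library stood apart from the rest in some transcripts of other tissues. Genes typical of liver summed to 280.4 FPKM there, against 76.2 with vehicle, 39.2 with astemizole and 38.7 and 34.2 in the scramble and knockdown columns. Of 104 such genes found in the table, 30 reached 1 FPKM or more with GSK126, 12 with vehicle and 5 with astemizole. For example ALB, serum albumin, was at 4.18 FPKM with vehicle, 28.7 with GSK126 and 0.133 with astemizole. The blood marker LYZ, lysozyme, was likewise highest with GSK126, at 7.57 FPKM against 1.03 with vehicle and 0.262 with astemizole. All 30 liver genes were left out of every count below. Had they stayed, 22 of them would have been counted as lower with astemizole and 0 as higher. The part that this signal plays in other genes was not tested, but 27 of the genes counted as lower below were under 0.5 FPKM in the astemizole, scramble and knockdown columns.

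Cells given astemizole had less RNA of the cell division machinery and of androgen-induced secretory genes than cells given GSK126. They had more RNA of cholesterol synthesis, of the integrated stress response and of iron and antioxidant defence. In bulk RNA of this kind, fewer cells of a type and less RNA per cell cannot be told apart. Of the 12663 genes, 283 (2.23%) were at least 2-fold higher with astemizole and 402 (3.17%) at least 2-fold lower, 685 (5.41%) in either direction. The difference was at least 4-fold for 26 higher and 50 lower genes. The median gene was at -0.05, and the middle 90% of genes lay between -0.76 and 0.71. With values rescaled to a common total the median gene was at -0.20 and the split was 201 higher to 508 lower, so 28.3% of changed genes were higher in place of 41.3%. For scale, 22 of 12367 genes (0.178%) in the scramble shRNA control stood 2-fold or more above the vehicle control and 102 (0.825%) below it, 1.00% in either direction.

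Each compound was also read against the vehicle library. With astemizole, 455 of 12607 genes (3.61%) stood at least 2-fold higher and 702 (5.57%) lower, 9.18% in either direction. With GSK126, 119 of 12593 (0.945%) stood higher and 123 (0.977%) lower, 1.92% in either direction. The median gene stood at -0.06 with astemizole and at -0.03 with GSK126. Among the changed genes of the direct contrast, those at high levels were more often higher with astemizole: of 1043 genes at 100 FPKM or more, 55 (5.27%) were higher and 27 (2.59%) lower. Of 328 long non-coding RNAs, 17 were higher and 3 lower.

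**Figure D1:**
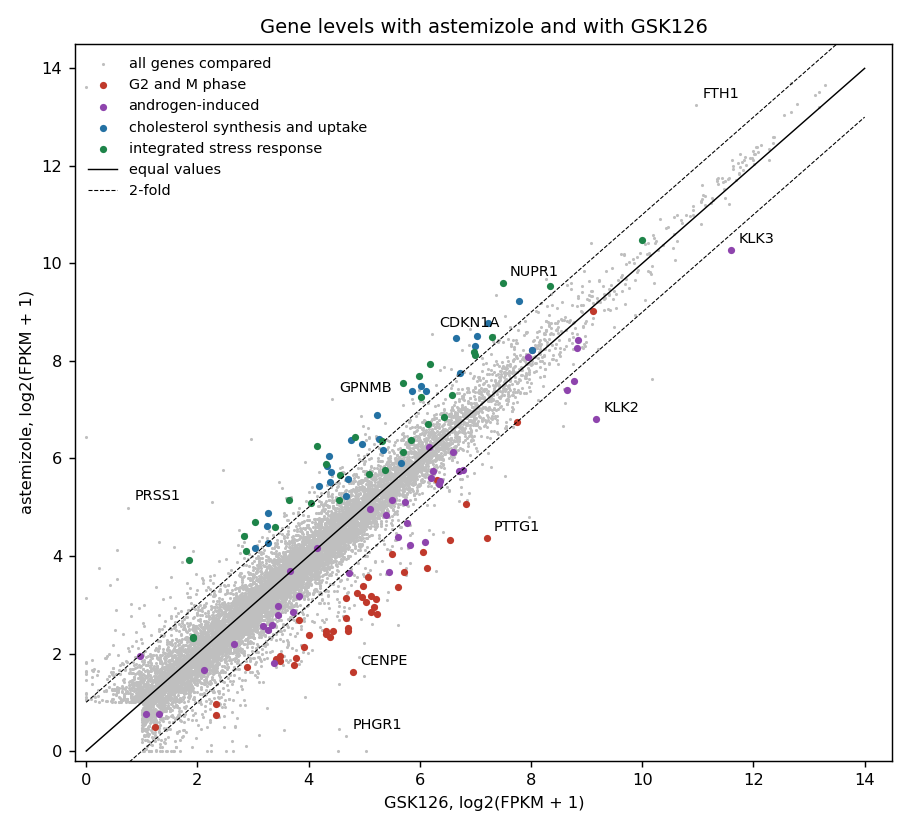
Each grey point is 1 of the 12663 genes, with log2(FPKM + 1) in the GSK126 library on the horizontal axis and in the astemizole library on the vertical axis; colours mark 4 gene lists, the solid line equal values and the dashed lines a 2-fold difference. Genes of G2 and M phase (red) lie below the diagonal in 42 of 42 cases, and genes of cholesterol synthesis and uptake (blue) lie above it in 27 of 27.

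Without rescaling, the subunits of PRC2 itself differed by less than 2-fold. EZH2, the methyltransferase, was at 9.48 FPKM with astemizole, against 17.5 with GSK126 and 26.5 with vehicle, a ratio of -0.82. EED, which binds the methylated histone tail and activates the enzyme, was at 14.9 FPKM with vehicle, 10.6 with GSK126 and 7.71 with astemizole, a ratio of -0.41. SUZ12, the scaffold of the complex, was at 28.4 FPKM with vehicle, 24 with GSK126 and 18.1 with astemizole, a ratio of -0.39. For these 3 subunits the order was the same, highest with vehicle, lower with GSK126 and lowest with astemizole. EZH1, the paralog found in non-dividing cells, was at 4.56 FPKM with astemizole, against 4.46 with GSK126 and 3.81 with vehicle and did not follow that order. The histone-binding subunit RBBP7 was at 186 FPKM with vehicle, 152 with GSK126 and 84.6 with astemizole, a ratio of -0.83, and RBBP4 at -0.17. Of the 6 core genes, 0 were changed and the median was -0.40, against -0.05 for all genes. After rescaling to a common total, 1 of the 6 was lower and the median was -0.56, against -0.20 for all genes.

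Accessory subunits guide PRC2 to chromatin. Of 8 measured, 0 were changed (median -0.39). JARID2, which recruits the complex, was at 5.95 FPKM with vehicle, 10.7 with GSK126 and 6.67 with astemizole. PHF19, another targeting subunit, was at 3.14 FPKM with astemizole, against 2.91 with GSK126 and 6.43 with vehicle, so it was lower with both compounds than with vehicle. PHF1 was the highest of the 8, at a ratio of 0.60. The 19 genes of the partner complex PRC1 had 0 changed and a median of -0.17. Among the 4 genes of H3K27 demethylases and acetylases that could be measured, 0 were changed and the median was -0.05.

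A list of 13 measured genes reported as silenced by EZH2 split in both directions, with 2 higher, 2 lower and a median of -0.06. WNT5A, a secreted Wnt ligand, was at 3.33 FPKM with vehicle, 11.4 with GSK126 and 2.57 with astemizole, a ratio of -1.80. BMPR1B, a receptor for bone morphogenetic proteins, was at 2.63 FPKM with vehicle, 8.05 with GSK126 and 1.66 with astemizole, a ratio of -1.77. Both were highest with GSK126, with astemizole below vehicle. The other two called genes were highest with astemizole. IGFBP3, which binds insulin-like growth factors, was at 16.2 FPKM with astemizole, against 2.80 with GSK126 and 2.58 with vehicle, a ratio of 2.18. CDKN2B, an inhibitor of CDK4 and CDK6, was at 0.282 FPKM with vehicle, 0.463 with GSK126 and 10.5 with astemizole, a ratio of 2.98. CDKN2A, its neighbour and a classical PRC2 target, was at 40.4 FPKM with vehicle, 29.4 with GSK126 and 17.1 with astemizole, lowest with astemizole. Of 18 HOX genes measured, textbook targets of Polycomb, 1 was higher and 0 lower: HOXB9 was at 14.2 FPKM with astemizole, against 4.73 with GSK126 and 2.45 with vehicle. The HOX median was -0.04, and it became slightly positive when ratios were centred on the median gene.

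Among lists with more than 1 gene measured, the largest median difference was in cell division. In the G2 and M phase list all 42 ratios were below 0 and 39 genes were lower by 2-fold or more with astemizole (median -1.86). The median was -2.68 for astemizole against vehicle and -0.79 for GSK126 against vehicle. CENPE, the kinetochore motor that aligns chromosomes, was at 35.8 FPKM with vehicle, 26.7 with GSK126 and 2.05 with astemizole, a ratio of -3.18. PTTG1, securin, which holds sister chromatids together until anaphase, was at 303 FPKM with vehicle, 146 with GSK126 and 19.7 with astemizole, a ratio of -2.83. HMMR, a spindle protein, was at 6.05 FPKM with astemizole, against 36.3 with GSK126 and 61.9 with vehicle. In each of these genes the GSK126 value lay between vehicle and astemizole. CDC20, the activator of the anaphase-promoting complex, was at 136 FPKM with vehicle, 69 with GSK126 and 12.4 with astemizole, a ratio of -2.38. TOP2A, which untangles DNA, was at 56.8 FPKM with vehicle, 34 with GSK126 and 6.26 with astemizole. The mitotic cyclin CCNB2 was at 9.28 FPKM with astemizole, against 48 with GSK126 and 95.5 with vehicle, and its paralog CCNB1, like it an activator of CDK1, was at 169.6 FPKM with vehicle, 92.2 with GSK126 and 19.2 with astemizole. PLK1, a kinase that drives mitotic entry, was at 71.3 FPKM with vehicle, 35.2 with GSK126 and 6.72 with astemizole, a ratio of -2.23. CCNB1 and PLK1 were named after their values were seen. The 3 genes short of 2-fold were CKS1B (-0.75), BORA (-0.75) and CKS2 (-0.09). CKS2 was at 521 FPKM with astemizole, against 553 with GSK126 and 784 with vehicle.

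Genes of this list are known to share promoter elements, so 3 promoters are shown to make these visible. The sequences are the 250 bases before the start of each gene in RefSeq on GRCh38.p14, written 5′ to 3′ on the strand of the gene. They come from chr16:23678639-23678888 (plus strand) for PLK1, chr15:59104896-59105145 (plus) for CCNB2 and chr1:43358731-43358980 (plus) for CDC20. Capitals mark the cell cycle homology element as TTTGAA or TTTAAA and the CCAAT box, searched on both strands.
PLK1: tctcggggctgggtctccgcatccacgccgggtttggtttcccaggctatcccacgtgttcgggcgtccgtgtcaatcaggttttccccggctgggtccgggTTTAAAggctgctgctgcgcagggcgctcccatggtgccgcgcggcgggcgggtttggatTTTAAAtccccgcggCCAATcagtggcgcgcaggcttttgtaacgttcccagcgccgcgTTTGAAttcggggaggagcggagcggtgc
CCNB2: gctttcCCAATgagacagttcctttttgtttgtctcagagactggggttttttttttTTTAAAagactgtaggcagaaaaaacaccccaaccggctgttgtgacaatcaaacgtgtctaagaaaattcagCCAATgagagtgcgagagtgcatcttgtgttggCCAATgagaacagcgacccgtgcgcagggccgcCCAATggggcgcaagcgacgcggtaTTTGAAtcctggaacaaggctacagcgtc
CDC20: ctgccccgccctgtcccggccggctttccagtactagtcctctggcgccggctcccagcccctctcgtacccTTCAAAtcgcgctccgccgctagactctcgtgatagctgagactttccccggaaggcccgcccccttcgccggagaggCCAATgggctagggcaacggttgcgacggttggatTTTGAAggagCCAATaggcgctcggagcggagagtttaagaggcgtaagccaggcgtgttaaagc
In PLK1 and CCNB2 the TTTGAA match began 29 bases before the start, and in CDC20 it began 65 bases before it, with a reverse-strand match at 178 bases. Of 35 promoters of the list that were found, 20 (57.1%) held TTTGAA, against 7.96% of 9633 promoters of genes compared here and 13.6% of all 27305 in the table. TTTAAA was in 12 (34.3%), against 6.61% and 11.4%. CCAAT was in 29 (82.9%), against 36% and 33%. TTTAAA reads the same on both strands, and matches of different patterns can share an end letter. A match describes the letters and not a bound site.

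The genes that fold and hold chromosomes were lower too. Of 12 condensin and cohesion genes, 10 passed 2-fold, all of them lower (median -1.30). The condensin subunit NCAPG was at 18.8 FPKM with vehicle, 10.6 with GSK126 and 2.42 with astemizole, a ratio of -1.77. SMC4, the ATPase of condensin, was at 90.1 FPKM with vehicle, 39 with GSK126 and 13.9 with astemizole. The protector of centromeric cohesion SGOL2 was at 2.89 FPKM with astemizole, against 10.8 with GSK126 and 17.6 with vehicle. The others were NCAPH2 at -0.20 and NCAPD3, just short of 2-fold at -0.88. All 12 were lower with astemizole than with GSK126.

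Replication genes differed less. Among 36 genes of S phase, 10 were past 2-fold in the lower direction (16 after rescaling to a common total) and 0 in the higher (median -0.79). Against vehicle, the medians were -1.69 with astemizole and -0.84 with GSK126. GINS4, a part of the replicative helicase, was at 14.3 FPKM with vehicle, 9.19 with GSK126 and 3.17 with astemizole, a ratio of -1.29. RFC3, a subunit of the clamp loader, was at 84.8 FPKM with vehicle, 41.3 with GSK126 and 16.7 with astemizole. PCNA, the sliding clamp, was at 110.1 FPKM with astemizole, against 138 with GSK126 and 303 with vehicle, so most of its distance from vehicle was already present with GSK126. POLE, the leading-strand polymerase, was at a ratio of -0.01, with 6.31 FPKM with vehicle, 4.09 with GSK126 and 4.06 with astemizole. All 36 ratios were below 0.

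Nucleotide supply, cell cycle control and DNA repair lay in the same direction. Of 9 nucleotide synthesis genes 3 were lower and 0 higher (median -0.77). RRM2, the S phase subunit of ribonucleotide reductase, was at 90.8 FPKM with vehicle, 41.1 with GSK126 and 11.3 with astemizole, a ratio of -1.77, and thymidine kinase TK1 was at 37.6 FPKM with astemizole, against 106 with GSK126 and 255 with vehicle. RRM2B, the p53-induced paralog of RRM2, was the only member above 0, at 0.73, with 17.5 FPKM with vehicle, 16.6 with GSK126 and 28.3 with astemizole. Among 19 cell cycle regulators 2 were lower, the transcription factors of mitotic genes MYBL2 and FOXM1. MYBL2 was at 142 FPKM with vehicle, 74.4 with GSK126 and 20.9 with astemizole, a ratio of -1.78. FOXM1 was at 9.52 FPKM with astemizole, against 31.2 with GSK126 and 58.6 with vehicle, a ratio of -1.61. Of 20 DNA repair genes 4 were lower (9 after rescaling to a common total), led by FANCI of the crosslink repair complex at 33.4 FPKM with vehicle, 22.3 with GSK126 and 7.27 with astemizole.

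The CDK inhibitors did not move as a group, with 2 of 8 higher, 1 lower and a median of -0.17. CDKN1A, p21, the inhibitor induced by p53 and other signals, was at 99.4 FPKM with vehicle, 73.6 with GSK126 and 374 with astemizole, a ratio of 2.33. Among the vehicle, GSK126 and astemizole columns it was lowest with GSK126 and highest with astemizole. The scramble column, at 48 FPKM, was lower still. CDKN2B, described above, was also highest with astemizole. CDKN3, a phosphatase that peaks in mitosis in spite of its name, was at 13.5 FPKM with astemizole, against 55.4 with GSK126 and 104 with vehicle, a ratio of -1.96. Of 21 histone genes 4 were lower and 0 higher, and the median of -0.26 turned positive when only genes at 5 FPKM or more were taken. The libraries were made from polyadenylated RNA, and most replication-dependent histone messages carry no poly(A) tail. HIST1H4C was at 58 FPKM with vehicle, 18.9 with GSK126 and 4.41 with astemizole.

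**Figure D2:**
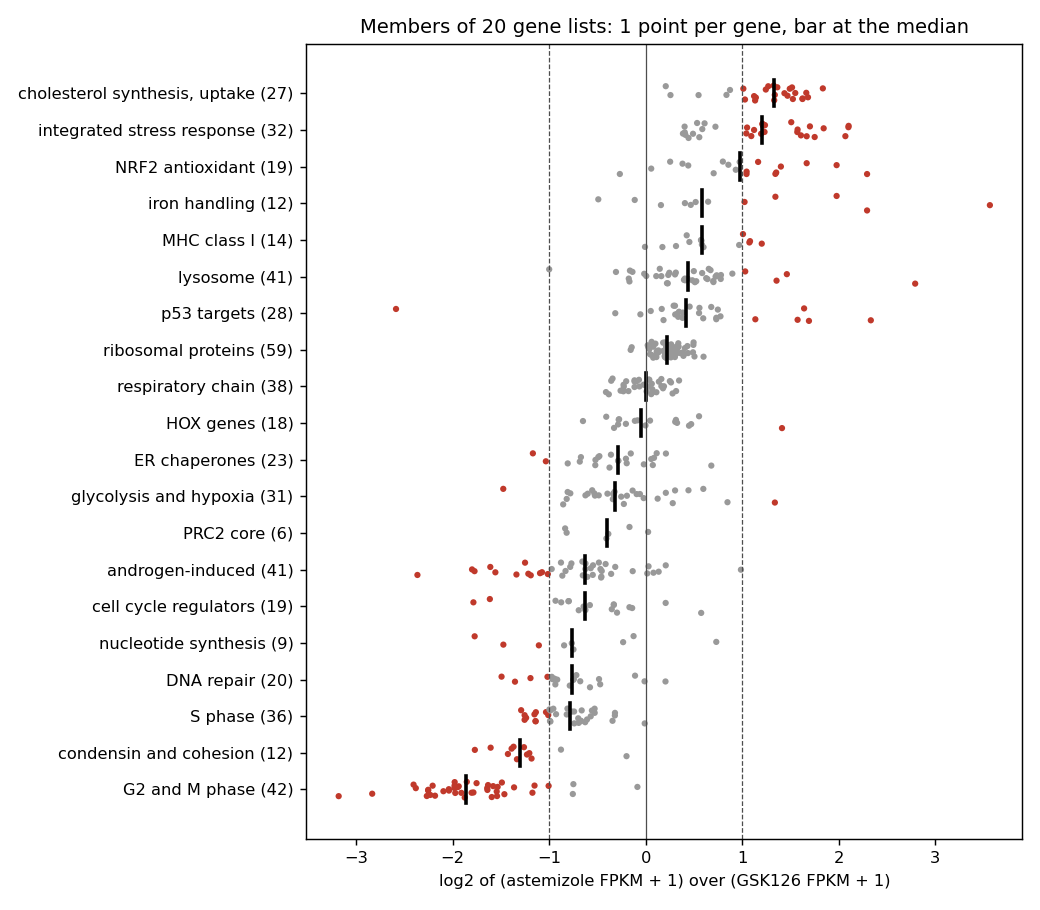
Each point is a gene of 1 of 20 lists, with the number of genes measured in brackets, placed by the log2 ratio of astemizole over GSK126; red points are at least 2-fold different, black bars mark list medians and dashed lines 2-fold. The lists run from G2 and M phase (median -1.86) to cholesterol synthesis and uptake (median 1.33).

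Androgen-induced genes separated the compounds in a different manner: they were somewhat above vehicle with GSK126 and below it with astemizole. Of 41 measured, 12 were at least 2-fold lower with astemizole than with GSK126 and 0 higher (median -0.62). The median was -0.49 for astemizole and 0.19 for GSK126 against vehicle. KLK2, a secreted kallikrein protease, was at 477 FPKM with vehicle, 574 with GSK126 and 111 with astemizole, a ratio of -2.36. FKBP5, a chaperone of steroid receptors, was at 18.6 FPKM with astemizole, against 67.2 with GSK126 and 64.1 with vehicle, a ratio of -1.80. TRPM8, a cold-sensing channel, was at 31.2 FPKM with vehicle, 42.4 with GSK126 and 11.7 with astemizole. In all 3 genes GSK126 was the highest of the vehicle, GSK126 and astemizole columns. FKBP5 was higher in the scramble column, at 91.5 FPKM, and TRPM8 in the knockdown column, at 46.1 FPKM. SLC45A3, prostein, was at 35.5 FPKM with vehicle, 55.8 with GSK126 and 17.6 with astemizole, a ratio of -1.61. KLK3, which encodes prostate-specific antigen, was at 1229.9 FPKM with astemizole, against 3112 with GSK126 and 2675 with vehicle, a ratio of -1.34. TMPRSS2, a membrane protease, was at 269 FPKM with vehicle, 438 with GSK126 and 191 with astemizole, a ratio of -1.19. KLK3 and TMPRSS2 were named after their values were seen.

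The list was not uniform. KLK4, another kallikrein of the same cluster, was at 163 FPKM with vehicle, 246 with GSK126 and 271 with astemizole, above vehicle with both compounds. ACPP, prostatic acid phosphatase, was at 16.9 FPKM with astemizole, against 16.6 with GSK126 and 4.09 with vehicle, with both compounds far above vehicle and close to each other, a ratio of 0.02. Of 4 androgen-repressed genes measured, 1 was lower and 0 higher: BCHE, butyrylcholinesterase, was at 1.55 FPKM with vehicle, 5.86 with GSK126 and 1.52 with astemizole. FOLH1, prostate-specific membrane antigen, was at 466 FPKM with vehicle, 493 with GSK126 and 923 with astemizole, a ratio of 0.90. The pioneer factor FOXA1 was at a ratio of -0.19 and the histone demethylase KDM1A at -0.64.

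KLK2 and KLK3 are neighbours with similar promoters, which are shown because both genes differ in the same direction. They are from chr19:50873189-50873438 (plus strand) for KLK2 and chr19:50854665-50854914 (plus) for KLK3, in the same RefSeq build. Capitals mark a match to a pattern for the androgen response element, which was written with these promoters in view.
KLK2: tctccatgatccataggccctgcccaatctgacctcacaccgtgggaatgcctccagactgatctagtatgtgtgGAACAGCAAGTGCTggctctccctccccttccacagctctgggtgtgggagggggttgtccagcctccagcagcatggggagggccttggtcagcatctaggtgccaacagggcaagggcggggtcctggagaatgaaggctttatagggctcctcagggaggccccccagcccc
KLK3: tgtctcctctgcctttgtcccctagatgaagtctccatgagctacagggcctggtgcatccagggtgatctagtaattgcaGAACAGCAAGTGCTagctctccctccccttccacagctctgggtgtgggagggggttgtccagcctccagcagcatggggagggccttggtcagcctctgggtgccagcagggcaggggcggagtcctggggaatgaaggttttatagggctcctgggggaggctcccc
The matches began 175 bases before the start of KLK2 and 169 bases before that of KLK3. They were the 2 matches among 28 promoters of the androgen-induced list (7.14%), against 0.104% of promoters of genes compared here. Because the letters were chosen from these promoters, that share describes them only.

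**Figure D3:**
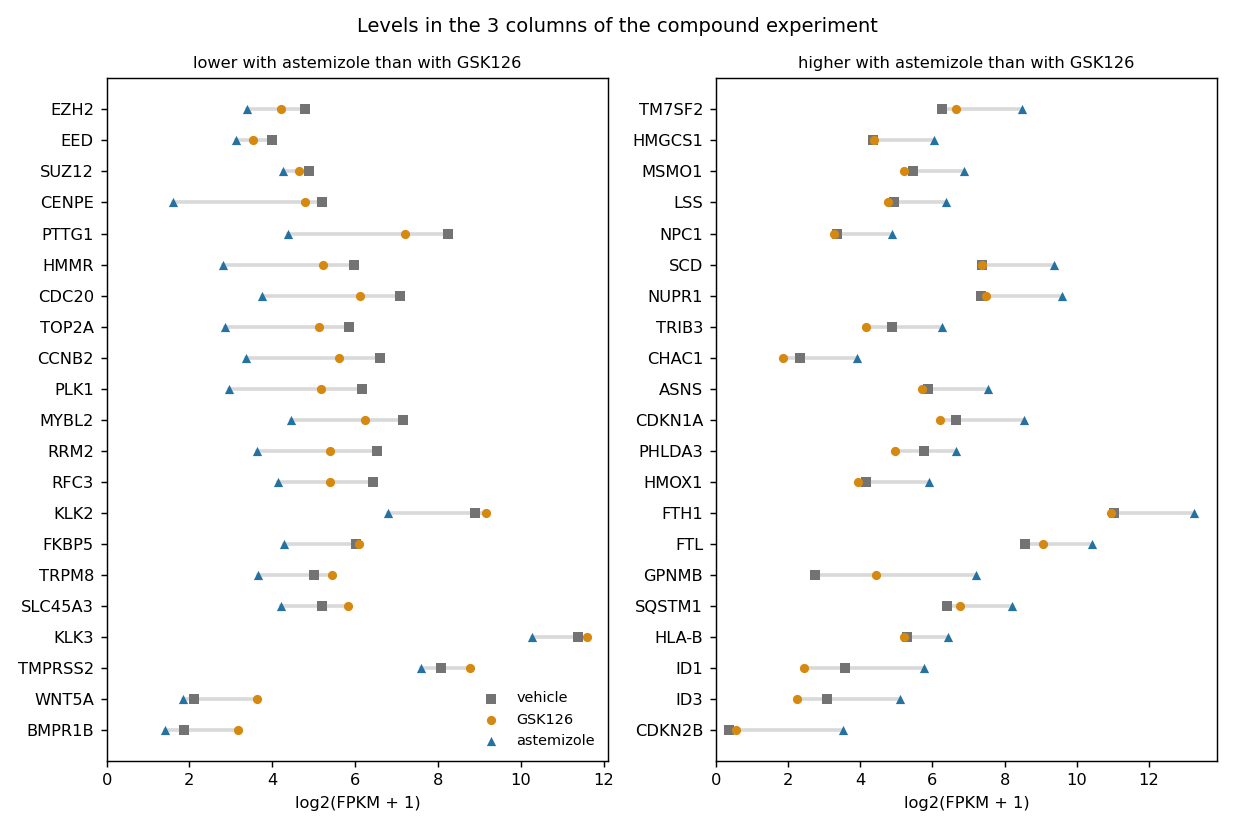
Symbols give log2(FPKM + 1) of 42 genes with vehicle (grey squares), GSK126 (orange circles) and astemizole (blue triangles), with 21 genes that are lower with astemizole than with GSK126 on the left and 21 that are higher on the right. In division genes such as PLK1 the GSK126 value lies between vehicle and astemizole, whereas in KLK2 and KLK3 it lies above vehicle, and in genes such as HMGCS1 and FTH1 it lies beside vehicle.

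Cholesterol genes were the most uniform group among those higher with astemizole. Of 27 genes of cholesterol synthesis and uptake, 22 were at least 2-fold higher than with GSK126 (17 after rescaling to a common total). In the lower direction were 0, and all 27 ratios were above 0 (median 1.33). The median was 0.99 for astemizole and -0.25 for GSK126 against vehicle. TM7SF2, a sterol reductase, was at 356 FPKM with astemizole, against 99.1 with GSK126 and 75.5 with vehicle, a ratio of 1.84. HMGCS1, which makes the precursor of mevalonate, was at 19.5 FPKM with vehicle, 19.7 with GSK126 and 65.3 with astemizole, a ratio of 1.68. LSS, lanosterol synthase, was at 29.8 FPKM with vehicle, 26 with GSK126 and 82.4 with astemizole. In HMGCS1 and LSS the vehicle and GSK126 values were close and astemizole stood alone. MSMO1, a sterol demethylase, was at 117 FPKM with astemizole, against 36.3 with GSK126 and 42.9 with vehicle. NPC1, which exports cholesterol from lysosomes, was at 9.17 FPKM with vehicle, 8.62 with GSK126 and 28.6 with astemizole, a ratio of 1.62. SREBF2, the transcription factor of the pathway, was short of 2-fold at 0.84.

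Fatty acid genes took part only in places. Of 16 genes 4 were higher and 0 lower (median 0.35). SCD, the desaturase that makes oleate, was at 166 FPKM with vehicle, 165 with GSK126 and 656 with astemizole, a ratio of 1.99. ACSS2, which activates acetate, was at 52 FPKM with astemizole, against 17.1 with GSK126 and 18.6 with vehicle. FADS1, a desaturase of long-chain fatty acids, was at 52 FPKM with vehicle, 36.3 with GSK126 and 87.6 with astemizole. FASN, fatty acid synthase, was at 212 FPKM with vehicle, 116 with GSK126 and 169.7 with astemizole, short of 2-fold, and SREBF1 stood at -0.05. Of 5 genes of cholesterol efflux 0 were higher and 1 was lower: APOE, at 0.358 FPKM with astemizole, against 10.7 with GSK126 and 1.15 with vehicle, follows the liver genes across the columns, with 0.847 FPKM in the scramble column and 0.440 in the knockdown column.

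Lysosomal genes leaned the same way with few past 2-fold. Of 41 measured, 4 were higher, 0 lower and 34 above 0 (median 0.44). The median was 0.58 for astemizole and 0.24 for GSK126 against vehicle, so both compounds stood above vehicle. GPNMB, a lysosomal membrane glycoprotein, was at 5.75 FPKM with vehicle, 20.5 with GSK126 and 148 with astemizole, a ratio of 2.79, with each step in that order upward. SQSTM1, the autophagy receptor p62, was at 84.2 FPKM with vehicle, 107 with GSK126 and 297 with astemizole, a ratio of 1.46. NEU1, a sialidase, was at 105 FPKM with astemizole, against 40.4 with GSK126 and 23.3 with vehicle. CTSD, cathepsin D, was at 124 FPKM with vehicle, 161 with GSK126 and 329 with astemizole. The protease CTSC lay opposite, at 38 FPKM with vehicle, 28.4 with GSK126 and 13.7 with astemizole, just short of 2-fold. Of 20 genes of autophagy and of the MiT/TFE factors that control lysosomal genes 0 were changed (median 0.16). The GTPase RRAGD was at 0.88 and the factor MITF at 0.75, with 3.86 FPKM with astemizole, against 1.90 with GSK126 and 7.85 with vehicle.

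Stress genes of the ATF4 kind were higher with astemizole. Of 32 genes of the integrated stress response, 21 were at least 2-fold higher (17 after rescaling to a common total) and 0 were lower. All 32 ratios were above 0 (median 1.20). The median was 0.84 for astemizole and -0.22 for GSK126 against vehicle. NUPR1, a stress-induced chromatin protein, was at 162 FPKM with vehicle, 179 with GSK126 and 770.3 with astemizole, a ratio of 2.10. TRIB3, a pseudokinase, was at 28.5 FPKM with vehicle, 16.8 with GSK126 and 75.4 with astemizole, a ratio of 2.10. CHAC1, which degrades glutathione, was at 14.2 FPKM with astemizole, against 2.62 with GSK126 and 4.01 with vehicle, a ratio of 2.07. Among the vehicle, GSK126 and astemizole columns TRIB3 and CHAC1 were lowest with GSK126. Both were lower still in the knockdown column, TRIB3 at 9.25 FPKM and CHAC1 at 1.12 FPKM. ASNS, asparagine synthetase, was at 57.3 FPKM with vehicle, 51 with GSK126 and 186 with astemizole, a ratio of 1.84. PSAT1, of serine synthesis, was at 107 FPKM with vehicle, 71.9 with GSK126 and 244 with astemizole. SLC7A11, the cystine transporter, was at 24.9 FPKM with astemizole, against 7.17 with GSK126 and 5.92 with vehicle, and its partner subunit SLC3A2 was at 86.8 FPKM with vehicle, 62.4 with GSK126 and 205 with astemizole.

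The binding element of ATF4 with C/EBP partners is visible upstream of 2 of these genes. The windows are chr7:97872409-97872658 (minus strand) for ASNS and chr15:40953221-40953470 (plus) for CHAC1. Capitals mark TGATGNAA on either strand.
ASNS: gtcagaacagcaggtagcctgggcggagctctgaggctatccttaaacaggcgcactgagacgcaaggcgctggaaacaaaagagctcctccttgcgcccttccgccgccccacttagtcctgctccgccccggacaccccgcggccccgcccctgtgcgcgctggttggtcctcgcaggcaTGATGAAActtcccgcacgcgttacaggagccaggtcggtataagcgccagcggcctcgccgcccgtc
CHAC1: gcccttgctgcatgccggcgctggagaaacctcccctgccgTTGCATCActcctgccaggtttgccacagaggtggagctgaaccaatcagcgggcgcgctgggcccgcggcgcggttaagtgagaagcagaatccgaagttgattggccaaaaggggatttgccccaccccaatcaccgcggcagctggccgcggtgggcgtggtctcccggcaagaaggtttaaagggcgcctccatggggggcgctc
The match in ASNS began 68 bases before the start, and that in CHAC1 lies on the opposite strand with its first printed base 209 bases before it. Of 26 promoters of the list, 5 (19.2%) held the pattern, against 1.27% of promoters of genes compared here and 3.19% of all promoters.

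Chaperones of the endoplasmic reticulum did not accompany this. Of 23 genes 0 were higher and 2 were lower (median -0.29). HSP90B1, the HSP90 of this compartment, was at 388 FPKM with vehicle, 384 with GSK126 and 170.2 with astemizole, a ratio of -1.17. MANF, a secreted stress protein, was at 98.5 FPKM with astemizole, against 203 with GSK126 and 258 with vehicle. HSPA5, BiP, was at 402 FPKM with vehicle, 431 with GSK126 and 246 with astemizole, lowest with astemizole. DNAJB9 was the highest member, at 0.68.

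Heat shock genes, mostly of the cytosol but with the mitochondrial HSPD1 and HSPE1 among them, had a median of 0.14, against -0.05 for all genes. That median lay below 0 after rescaling to a common total. Of the 15 genes 2 were higher and 0 lower, beside 2.23% and 3.17% of all genes. HSPA6, an HSP70 that is nearly silent without stress, was at 0.327 FPKM with vehicle, 0.171 with GSK126 and 12.6 with astemizole, a ratio of 3.53, from a level at which both other libraries hold little signal. CRYAB, a small heat shock protein, was at 13.9 FPKM with astemizole, against 4.23 with GSK126 and 4.04 with vehicle. HSPA8, the constitutive HSP70, was at -0.24 and HSP90AA1 at -0.25. The promoter of HSPA6, chr1:161524290-161524539 (plus strand), is shown for its heat shock element. Capitals mark the match to that element, alternating GAA and TTC units, here on the opposite strand.
HSPA6: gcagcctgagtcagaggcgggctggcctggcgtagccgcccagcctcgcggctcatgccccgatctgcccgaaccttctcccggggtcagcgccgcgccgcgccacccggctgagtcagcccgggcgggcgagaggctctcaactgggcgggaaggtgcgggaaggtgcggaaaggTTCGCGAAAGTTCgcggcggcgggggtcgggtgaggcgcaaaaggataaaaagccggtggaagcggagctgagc
The first printed base of the match lies 74 bases before the start. Of 13 promoters of the heat shock list 3 (23.1%) held the pattern, against 0.291% of promoters of genes compared here.

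GPNMB is shown likewise for the element bound by MiT/TFE factors, from chr7:23246525-23246774 (plus strand). Capitals mark TCANNTGA, which reads the same on both strands.
GPNMB: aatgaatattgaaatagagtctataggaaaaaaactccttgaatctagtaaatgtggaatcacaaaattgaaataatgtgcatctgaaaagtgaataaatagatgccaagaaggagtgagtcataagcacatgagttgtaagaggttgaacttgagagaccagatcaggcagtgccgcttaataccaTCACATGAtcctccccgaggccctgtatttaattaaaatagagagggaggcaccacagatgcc
The match began 63 bases before the start. Of 26 promoters of the lysosome list 11 (42.3%) held the pattern, against 5.21% of promoters of genes compared here and 6.35% of all promoters. Of the other patterns searched, TCACNCCAC, the sterol response element, was in 1 of 21 cholesterol promoters (4.76%, against 0.799%). TGACNNNGC, the antioxidant response element, was in 4 of 15 promoters of the antioxidant list (26.7%, against 12.5%).

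Iron storage and antioxidant genes were also higher with astemizole. Of 19 genes driven by NRF2, 9 were higher (7 after rescaling to a common total) and 0 lower (median 0.97). HMOX1, heme oxygenase, was at 17.1 FPKM with vehicle, 14.4 with GSK126 and 59.5 with astemizole, a ratio of 1.98. NQO1, a quinone reductase, was at 75.2 FPKM with vehicle, 57.1 with GSK126 and 147 with astemizole. FTH1, the heavy chain of ferritin, was at 9758 FPKM with astemizole, against 1990.2 with GSK126 and 2104 with vehicle, a ratio of 2.29. FTL, the light chain, was at 381 FPKM with vehicle, 536 with GSK126 and 1363 with astemizole, a ratio of 1.34. For both chains astemizole was highest. Of 12 iron genes 5 were higher and 0 lower (median 0.58). LCN2, which carries iron-binding siderophores, was at 0.492 FPKM with vehicle, 0.470 with GSK126 and 16.4 with astemizole, a ratio of 3.57, and was listed at 0 in the scramble and knockdown columns. TFRC, the transferrin receptor, was at 0.16. FTH1, FTL and HMOX1 stand in both lists, so their counts are not separate.

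Genes of the p53 pathway were modestly higher. Of 28, 5 were higher, 1 lower and 25 above 0 (median 0.42). Beside CDKN1A, PHLDA3, an inhibitor of AKT, was at 100.2 FPKM with astemizole, against 30.3 with GSK126 and 53 with vehicle, a ratio of 1.69. BBC3, the death effector PUMA, was at 2.60 FPKM with vehicle, 2.50 with GSK126 and 9.92 with astemizole, and SESN2, a leucine sensor that ATF4 also induces, was at 7.40 FPKM with vehicle, 6.15 with GSK126 and 20.3 with astemizole. PLK2 went against the list, at 12 FPKM with astemizole, against 76.9 with GSK126 and 21.3 with vehicle, a ratio of -2.59, highest with GSK126. Of 13 genes of the BCL2 family BBC3 alone was higher, 0 were lower and the median was 0.31.

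Inhibitors of differentiation and genes of BMP signalling held several of the largest differences, with 4 of 14 higher, 1 lower and a median of 0.13 that lay below 0 after rescaling. ID1, which blocks helix-loop-helix factors, was at 11 FPKM with vehicle, 4.49 with GSK126 and 53.5 with astemizole, a ratio of 3.31. ID3 was at 7.50 FPKM with vehicle, 3.78 with GSK126 and 33.4 with astemizole, a ratio of 2.85. ID2 was at 44.6 FPKM with astemizole, against 10.0 with GSK126 and 6.75 with vehicle, a ratio of 2.05. In ID1 and ID3 GSK126 was below vehicle and astemizole above it. The scramble column was also below vehicle, at 4.22 FPKM for ID1 and 3.15 FPKM for ID3. BMPR1B, described above, is the lower member.

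Antigen presentation by MHC class I leaned upward, with 4 of 14 higher, 0 lower, 13 above 0 and a median of 0.58. After rescaling to a common total 1 was higher. HLA-B was at 38.4 FPKM with vehicle, 36.2 with GSK126 and 84.6 with astemizole, a ratio of 1.20. B2M, the shared light chain, was at 298 FPKM with vehicle, 289 with GSK126 and 583 with astemizole, a ratio of 1.01. Reads of HLA genes can be split between near-identical copies, so single HLA values are uncertain. The 21 interferon-stimulated genes had 2 higher, 1 lower and a median of -0.01, whose sign depended on the setting. IRF1 was at 2.96 FPKM with astemizole, against 0.326 with GSK126 and 0.885 with vehicle, and OAS3, an antiviral synthetase, was at 4.08 FPKM with vehicle, 3.91 with GSK126 and 1.32 with astemizole.

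Glycolysis and hypoxia genes had 1 of 31 higher and 1 lower, shares near those of all genes, and a median of -0.32. LDHA, lactate dehydrogenase, was at 736 FPKM with vehicle, 391 with GSK126 and 140.0 with astemizole, a ratio of -1.47. The aldolase ALDOC was at 85 FPKM with astemizole, against 33 with GSK126 and 54.7 with vehicle, a ratio of 1.34. Of the 7 genes of the aryl hydrocarbon receptor measured 2 were higher, NQO1 and CYP1A2. CYP1A2, an oxidase of foreign compounds, was at 0.436 FPKM with vehicle, 1.40 with GSK126 and 9.23 with astemizole, while CYP1A1 was at 0.23 and CYP1B1 at -0.71. KCNH2, the potassium channel that astemizole blocks, was at 0.572 FPKM with vehicle, 0.404 with GSK126 and 1.95 with astemizole, a ratio of 1.07 at a low level, and it was the only member of its list of histamine receptors and KCNH channels that reached 1 FPKM.

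Several groups differed little. Ribosomal proteins (59 genes), respiratory chain subunits (38), proteasome subunits (31) and neuroendocrine genes (4) had 0 changed, with medians of 0.22, 0.01, -0.04 and -0.02. Of 20 housekeeping genes B2M alone was changed and the median was 0.01. The respiratory chain and housekeeping medians were negative after rescaling to a common total, and those of proteasome and neuroendocrine genes positive with centring on the median gene. Epithelial genes had 1 of 18 lower, KRT19 at 0.164 FPKM with astemizole, against 2.24 with GSK126 and 2.87 with vehicle, and mesenchymal genes 1 of 7 lower, THBS1, an extracellular matrix protein, at 19.3 FPKM with vehicle, 46.3 with GSK126 and 19.1 with astemizole. Of 14 immediate early genes 2 were higher, ATF3 at 1.51 and JUNB at 1.03, and 0 were lower. Of 12 metallothionein and zinc genes 1 was higher and 2 were lower, MT1G and MT1E. Both were listed at 0 with astemizole, and 0 were lower when genes listed at 0 were left out. MT1G was at 3.76 FPKM with GSK126 and listed at 0 with vehicle.

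Many of the lowest genes belong to none of these groups. Named here are the 12 lowest and 11 of the 12 highest among genes at 5 FPKM or more with either compound, above 0 with both and with a current symbol. Lowest was PHGR1, a small epithelial protein rich in proline, histidine and glycine, at 21.3 FPKM with vehicle, 24.4 with GSK126 and 0.235 with astemizole, a ratio of -4.36. PGC, pepsinogen C, which the prostate secretes, was at 0.369 FPKM with astemizole, against 22.5 with GSK126 and 18.3 with vehicle, a ratio of -4.10. NMU, the neuropeptide neuromedin U, was at 48.2 FPKM with vehicle, 30.9 with GSK126 and 1.93 with astemizole, a ratio of -3.45. These 3 genes were readily measured with vehicle and GSK126 and stood at under 2 FPKM with astemizole. SLPI, a secreted protease inhibitor, was at 230.3 FPKM with vehicle, 247 with GSK126 and 27 with astemizole, a ratio of -3.15. CRISP3, a secreted protein of prostate fluid, was at 1.58 FPKM with astemizole, against 22.3 with GSK126 and 11.8 with vehicle, and TMEFF2, a membrane protein of prostate, was at 7.71 FPKM with vehicle, 29 with GSK126 and 2.82 with astemizole. Both were highest with GSK126. TM4SF1, a tetraspanin relative, was at 70.5 FPKM with vehicle, 47.5 with GSK126 and 5.00 with astemizole. PHLDA1 was at 1.15 FPKM with astemizole, against 14.3 with GSK126 and 18.7 with vehicle, and TRIB2, a pseudokinase related to TRIB3, was at 27.5 FPKM with vehicle, 30.8 with GSK126 and 3.62 with astemizole, so the pair TRIB2 and TRIB3 differed in opposite directions. APOE, CENPE and PTTG1 complete the 12.

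Highest was PRSS1, trypsinogen, at 1.77 FPKM with vehicle, 0.678 with GSK126 and 30.8 with astemizole, a ratio of 4.25. It belongs to a family of near-identical trypsinogen genes among which reads can be split. S100P, a calcium-binding protein, was at 83.9 FPKM with astemizole, against 6.84 with GSK126 and 7.85 with vehicle, a ratio of 3.44. DIO3, which inactivates thyroid hormone, was at 0.0638 FPKM with vehicle, 0.343 with GSK126 and 9.58 with astemizole, a ratio of 2.98. In PRSS1, S100P and DIO3 the values with vehicle and GSK126 both lay far below the value with astemizole. SLC6A9, a glycine transporter, was at 3.13 FPKM with vehicle, 1.99 with GSK126 and 17.1 with astemizole. Also among the 12 were LCN2, HSPA6, ID1, CDKN2B, ID3, GPNMB and CDKN1A.

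**Figure D4:**
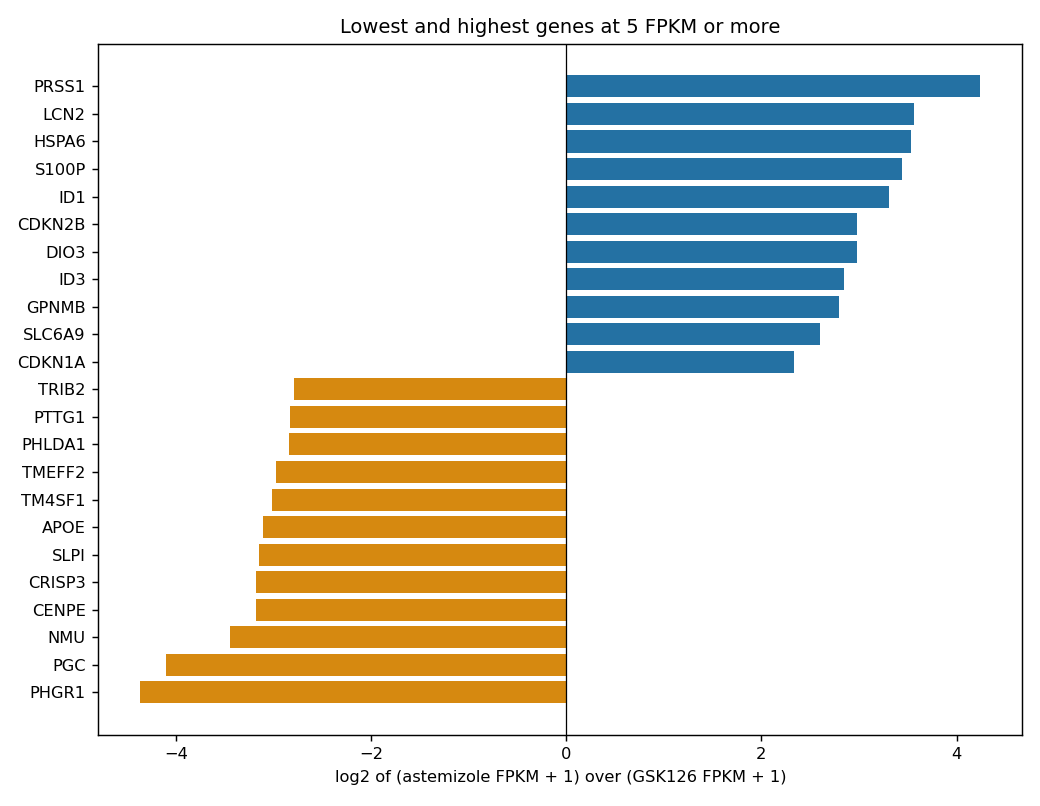
Bars give the log2 ratio of astemizole over GSK126 for the 12 lowest (orange) and 11 of the 12 highest (blue) genes among those at 5 FPKM or more with either compound, above 0 with both and with a current symbol. They run from -4.36 for PHGR1 to 4.25 for PRSS1.

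The knockdown and scramble columns share no library with the direct contrast, so they were set beside it. EZH2, the gene aimed at, was at 24.6 FPKM in the scramble column and 3.35 in the knockdown column. Of 12166 genes measured in both, the knockdown had 232 at least 2-fold higher (1.91%) and 653 lower (5.37%) than scramble. Of the 360 of these genes that were lower with astemizole than with GSK126, 218 (60.6%) were also lower in the knockdown, which is 33.4% of the knockdown's lower genes. Of the 241 that were higher with astemizole, 29 (12%) were also higher in the knockdown, 12.5% of its higher genes. In the opposite direction, 11 of the 241 genes higher with astemizole (4.56%) were lower in the knockdown, against 5.37% of all genes measured in both. Of the 360 genes lower with astemizole, 23 (6.39%) were higher in the knockdown, against 1.91% of all genes measured in both. The overlap was not tested.

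By group, the knockdown column was lower by 2-fold or more in 40 of the 42 genes of G2 and M phase and in 35 of the 36 of S phase, with medians of -3.14 and -2.26. By contrast, cholesterol synthesis and uptake had 1 higher and 1 lower of 27 with a median of 0.01, and the integrated stress response 1 higher and 1 lower of 32 with a median of -0.26. CDKN1A was at 48 FPKM in the scramble column and 369.8 in the knockdown column, and ID1 at 4.22 and 36.9. FTH1 was at 1422 and 1767, HMGCS1 at 22.4 and 27.9, and NUPR1 at 129.6 and 125. CDKN1A and ID1 were thus higher in the knockdown as with astemizole, while FTH1, HMGCS1 and NUPR1 were not at least 2-fold higher. The cholesterol gene at least 2-fold higher in the knockdown was TM7SF2, at 88.5 and 211 FPKM. The lysosomal gene GPNMB was also at least 2-fold higher, at 2.24 and 11.7 FPKM. The androgen-induced genes had 2 higher and 7 lower of 41 in the knockdown (median -0.25). KLK2 was at 473 FPKM in the scramble column and 218 in the knockdown column, while TRPM8 went the other way, at 19.2 and 46.1. Of the 28 p53 genes, 14 were at least 2-fold higher in the knockdown and 0 lower (median 0.86). The 13 genes reported as silenced by EZH2 had 3 higher and 0 lower (median 0.10). Lysosomal genes had 2 higher and 0 lower of 41 (median 0.43). Genes driven by NRF2 had 0 changed of 19 (median 0.08) and iron genes 0 of 12 (median 0.07). MHC class I had 0 higher and 2 lower of 14 (median -0.26).

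Zero values need care in this table. Of the changed genes, 14 of the higher were listed at 0 with GSK126 and 22 of the lower at 0 with astemizole. A 0 can be a failed estimate: Y16709, a name with no current symbol, was listed at 14239 FPKM with vehicle, 0 with GSK126 and 12508 with astemizole. No fold is given for such names. At the lower edge of the rule, LPO was just inside, at 1.00 FPKM with astemizole and 0.167 with GSK126, and LOC100505715 was just outside, at slightly under 1.00 FPKM with GSK126 and 0.724 with astemizole.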

How the data were processed

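Polyadenylated RNA of C4-2 cells was sequenced, 6 libraries by the labels, 1 each for vehicle, GSK126, astemizole, scramble shRNA and the 2 EZH2 hairpins, and the authors deposited 1 table with 5 value columns. Its values are FPKM, deposited by the authors and named so per the labels. TopHat2, Cuffdiff and the genome build hg19 are named per the submitters' processing notes, without versions. The annotation and any filters were not given in sources used here. The knockdown column names no hairpin and was used as the authors' value.

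From the table, 27 names turned into dates, 1717 short RNA names and 30 liver-type genes at level were left out. A pseudocount of 1 FPKM was added before taking log2, genes at 1 FPKM or more in either column were kept, and 2-fold was the limit for a change. Of 12663 genes, 11893 matched a reference symbol. Genes named were EZH2, EZH1, EED and SUZ12, the 12 lowest and 12 highest at 5 FPKM or more with a symbol, and in each list the members with the largest ratios at 5 FPKM or more, at most 4. Other members were named for their role or position in the list after their values were seen. The compounds, the 50 gene lists, the motifs and the rule were chosen with earlier results of these data known. The values of a few genes that the rule or the lists take in are not reported here. The comparison with the knockdown column was added after the data were seen.

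With 1 column per condition there is no test, p-value or standard deviation, and the depth behind the FPKM values is unknown. Promoter windows come from RefSeq (GRCh38.p14), which is not the authors' build, so no other coordinates are given. Alternatives were another pseudocount, other filters, rescaling each column to a common total (TPM), centring on the median gene, liver genes included, and genes listed at 0 left out. The steps were tested on simulated data. Python 3.11.15, numpy 2.4.6, pandas 2.3.3 and matplotlib 3.10.9 were used.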

Additional observations from a re-analysis of the deposited data

Results flagged for a closer look

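Liver-type genes lie outside the comparison, but their summed level in the GSK126 library was 280.4 FPKM, above the 76.2 FPKM of the vehicle library. The sums were 39.2 FPKM with astemizole, and 38.7 and 34.2 FPKM in the scramble and knockdown columns, so GSK126 was the highest of the 5 columns. APOE and LYZ, which are not on that list, were also highest with GSK126.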

How the results depend on the processing

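Counts of genes at least 2-fold different depended on the pseudocount. With 0.1 FPKM in place of 1 FPKM, 449 genes were higher with astemizole and 627 lower, against 283 and 402. Without a filter on low values the counts were 283 and 402, with a filter of 5 FPKM 221 and 287, after rescaling to a common total 201 and 508, with centring on the median gene 315 and 357, with liver genes included 283 and 424, and with genes listed at 0 left out 269 and 380. Leaving out genes under 0.5 FPKM in the astemizole, scramble and knockdown columns, a setting chosen after seeing the data, gave 283 and 375. Of 96 named genes past 2-fold, 92 stayed past 2-fold after rescaling and 95 with centring. That 0 of them changed sign is no check, because these genes were chosen for large ratios. The settings could not turn the sign of a ratio past 2-fold. The median of the list of histamine receptors and KCNH channels, 1 gene with the filter, went from 1.07 to -0.022 without it. With the pseudocount of 0.1 FPKM, the lower genes numbered 16 in place of 10 in S phase, 10 in place of 4 in DNA repair and 4 in place of 2 among cell cycle regulators. No paired analysis was possible because each condition has 1 column of values, the 2 EZH2 hairpin libraries included. Total read counts are unknown, so how far depth limits low values cannot be given.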

Other observations

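Polyamine synthesis was not among the lists. Its genes were looked at after their values were seen, so they are a description. ODC1, ornithine decarboxylase and the first step of the pathway, was at 198 FPKM with astemizole, against 1154 with GSK126 and 1274 with vehicle, a log2 ratio of -2.54. SMS, spermine synthase, was at 265 FPKM with vehicle, 380.0 with GSK126 and 101 with astemizole, a ratio of -1.90. Both were lowest with astemizole, and SMS was highest with GSK126. ODC1 was at 958 FPKM in the scramble column and 276 in the knockdown column.

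Other genes outside the lists, also picked by their values, were CXCL12, PCK2, MALAT1 and MKI67. CXCL12, a chemokine, was at 19.3 FPKM with vehicle, 41.7 with GSK126 and 7.53 with astemizole, a ratio of -2.32. PCK2, the mitochondrial enzyme that makes phosphoenolpyruvate, was at 116 FPKM with astemizole, against 29.7 with GSK126 and 38.9 with vehicle, a ratio of 1.93. MALAT1, an abundant nuclear non-coding RNA, was at 201 FPKM with vehicle, 184 with GSK126 and 485 with astemizole, a ratio of 1.40. MKI67, the proliferation antigen Ki-67, was at 11.7 FPKM with vehicle, 11 with GSK126 and 2.67 with astemizole, a ratio of -1.71. MKI67 with GSK126 was thus only slightly below vehicle. PLK1 and CCNB2 lay further below it, with log2 ratios of GSK126 over vehicle of -0.998 and -0.979, just short of 2-fold. Division genes differed among themselves in this ratio. CENPE stood at -0.41, while 8 of the 42 genes of G2 and M phase passed 2-fold below vehicle.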
